A study of Mus musculus with 24 samples.

Results

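The genes described are 10 targets of the hypoxia-inducible factors (HIF): Vegfa, Slc2a1, Ldha, Pgk1, Car9, Hk2, Adm, Egln3, Bnip3 and Ndrg1. They were chosen by name, and each was read through its probe set with a single gene symbol and the highest mean over 24 arrays. They make up 10 of 17097 genes measured, and all 10 passed the filter on dim probe sets that left 13218 genes for testing. The arrays hold RNA from 24 tumours excised from mouse cortex, with 1 array per tumour. Each tumour derived from cells that expressed a class gene. There were 6 tumours with RAB3A (a GTPase that acts in neurotransmitter release), 9 with BC74C (no approved symbol, left as the labels spell it) and 9 with ZNF668 (a zinc finger protein). A second label calls 4 tumours HGG, which the labels do not spell out, 11 ependymoma, 5 TUMOR and 4 UNKNOWN. By class gene, HGG and ependymoma stand at 0 and 2 among the RAB3A tumours, at 2 and 6 among the BC74C tumours and at 2 and 3 among the ZNF668 tumours. No normal cortex is among the samples, so every comparison is between tumours. Strain, age, the cells of origin and the vector are not given in the sources used here. Nor is it stated whether each tumour grew in an animal of its own, so p-values speak only of the spread between these samples.

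HIF is a transcription factor made of an oxygen-regulated alpha subunit (Hif1a, Epas1 or Hif3a) and a stable partner (Arnt or Arnt2). In the presence of oxygen, prolyl hydroxylases of the Egln family mark the alpha subunit for the VHL ubiquitin ligase, which has it degraded. In low oxygen the alpha subunit persists, and the dimer binds a short core sequence, ACGTG or GCGTG, near genes of glucose uptake, glycolysis, acid handling, vessel growth and mitochondrial turnover. In brain tumours such genes are known to be high around necrosis, and several are also set by growth signals or by cell type. Slc2a1 protein, for instance, is abundant in the endothelium of the blood-brain barrier, and Ndrg1 in myelinating cells.

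Promoters were found for 9 of the 10 genes in RefSeq's table of assembly GRCm38.p6, with Ndrg1 not among them. The 250 bases before each annotated start were searched on both strands for ACGTG and GCGTG, where overlapping matches count separately. Of 11 such windows 10 held a match, in 9 genes, beside 38.6% of the 32851 windows of all genes. A match is a description of the letters and is neither a shown binding site nor a cause. The following windows are shown because the genes they precede took the most different courses across the tumours. Ldha, Hk2 and Egln3 were high in proliferating tumours, while Slc2a1 and Bnip3 did not go with them. They run 5′ to 3′ in the direction of the gene, in lower case, with every match in capitals (CACGT and CACGC are the reverse strand's form).
Ldha, chr7:46845554-46845803, plus strand: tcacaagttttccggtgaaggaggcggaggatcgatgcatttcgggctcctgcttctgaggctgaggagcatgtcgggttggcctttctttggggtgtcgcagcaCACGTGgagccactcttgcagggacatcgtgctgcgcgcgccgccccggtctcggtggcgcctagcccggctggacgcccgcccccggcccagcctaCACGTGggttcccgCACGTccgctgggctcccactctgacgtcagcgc
Hk2, chr6:82774455-82774704, minus strand: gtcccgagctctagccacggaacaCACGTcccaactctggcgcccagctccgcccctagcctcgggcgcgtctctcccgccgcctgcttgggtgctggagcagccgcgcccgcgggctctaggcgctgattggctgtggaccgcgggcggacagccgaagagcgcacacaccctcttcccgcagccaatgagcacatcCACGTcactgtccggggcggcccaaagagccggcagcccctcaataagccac
Egln3, chr12:54203875-54204124, minus strand: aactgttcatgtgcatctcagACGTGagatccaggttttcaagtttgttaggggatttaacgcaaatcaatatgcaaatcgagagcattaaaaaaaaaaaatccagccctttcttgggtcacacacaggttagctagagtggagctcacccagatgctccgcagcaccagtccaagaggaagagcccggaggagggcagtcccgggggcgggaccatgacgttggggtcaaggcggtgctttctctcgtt
Slc2a1, chr4:119108495-119108744, plus strand: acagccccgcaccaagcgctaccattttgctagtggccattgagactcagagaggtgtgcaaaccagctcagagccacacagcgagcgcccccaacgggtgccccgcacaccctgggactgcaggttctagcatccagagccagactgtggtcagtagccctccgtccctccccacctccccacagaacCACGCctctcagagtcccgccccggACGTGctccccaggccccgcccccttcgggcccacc
Bnip3, chr7:138909507-138909756, minus strand: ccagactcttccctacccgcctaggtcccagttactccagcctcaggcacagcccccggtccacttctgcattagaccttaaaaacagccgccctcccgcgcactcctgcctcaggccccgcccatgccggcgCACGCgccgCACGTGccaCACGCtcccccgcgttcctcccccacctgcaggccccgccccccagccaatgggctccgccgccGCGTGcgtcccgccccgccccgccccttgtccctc
The Ldha window held 5 matches, all ACGTG, at 145, 144, 48, 47 and 34 bases before the start. The pairs 1 base apart are the palindrome CACGTG read on both strands. The Hk2 window held 2 matches, at 226 and 52 bases, and the Egln3 window 1, at 229 bases. The Slc2a1 window held 2 matches, at 61 and 36 bases, and the Bnip3 window 5, of which 2 were ACGTG. Of the windows not shown, that of a Ldha start inside the gene held 1 match, which was GCGTG, Pgk1 and Adm held 2 matches each and Car9 1. The window of the Vegfa start at the upstream end of the gene held 0 matches, and that of a start inside the gene held 2.

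Array medians lay between 4.98 and 5.20 on the log2 scale of the deposited values, so no array stood apart in overall level. The lists of mature neuron, mature oligodendrocyte and proliferation genes, each summarised by the mean of its genes, varied more than the tumour groups differed. Over the 24 tumours the mature neuron mean ran from 4.80 to 10.25, the mature oligodendrocyte mean from 5.18 to 10.14 and the proliferation mean from 4.93 to 9.30. The endothelial mean ran from 5.76 to 7.84. The tumours therefore carry brain cell transcripts in different amounts. In bulk tissue fewer cells of a type and less RNA per cell cannot be told apart.

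The members differed widely in how much they varied. Adm, which encodes the vasodilator peptide adrenomedullin, had the widest range, 4.67 to 9.83, or 36.0-fold. Egln3, a HIF prolyl hydroxylase that is itself induced by HIF, ran from 5.35 to 9.49 (17.6-fold). Ndrg1, a stress-response gene, ran from 6.65 to 10.63 (15.8-fold), and Hk2, the hexokinase that traps glucose in the cell, from 6.03 to 9.83 (3.80 log2 units). Vegfa, the main growth factor of endothelial cells, ran from 7.17 to 10.44 (9.68-fold). Slc2a1, the glucose transporter, ran from 9.45 to 11.62 (4.47-fold) and Bnip3, a mitochondrial protein of mitophagy, from 9.18 to 11.33 (4.45-fold). Car9, a carbonic anhydrase of the cell surface, spanned 3.49-fold and Ldha, the lactate dehydrogenase subunit that favours lactate, 3.27-fold. Pgk1, the glycolytic phosphoglycerate kinase, spanned only 1.97-fold. Car9 was dim: its mean of 4.21 and its median of 4.05 lay close above the filter at 3.76. Signal over background was not measured here.

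Just 2 tumours held most of the highest values. BC74C replicate 6, labelled ependymoma, and ZNF668 replicate 7, labelled TUMOR, each ranked among the top 3 for 8 of the 10 members. Vegfa stood at 10.44 in both, with the next tumour, ZNF668 replicate 2, at 9.41. Adm stood at 9.83 and 9.42, Egln3 at 9.45 and 9.49, Hk2 at 9.83 and 9.72, and Ldha at 12.45 and 12.42, in BC74C replicate 6 and ZNF668 replicate 7 in that order. The members' mean was 9.95 in BC74C replicate 6 and 9.999 in ZNF668 replicate 7, against 9.15 in the next tumour. They carry different class genes and different labels. Both also had proliferation means among the 3 highest (9.06 and 9.08) and mature oligodendrocyte means among the 3 lowest (5.65 and 5.39), with mature neuron means of 6.70 and 4.80.

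ZNF668 replicate 9, labelled UNKNOWN, had the opposite profile within the set. It was the lowest of the 24 tumours in Vegfa (7.17), Hk2 (6.03) and Adm (4.67), and the highest in Slc2a1 (11.62) and Ndrg1 (10.63). Its endothelial mean of 7.84 and its mature oligodendrocyte mean of 10.14 were the highest of any tumour, and its astrocyte mean of 7.28 was the lowest. No other tumour had an endothelial mean above 6.73.

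**Figure D1:**
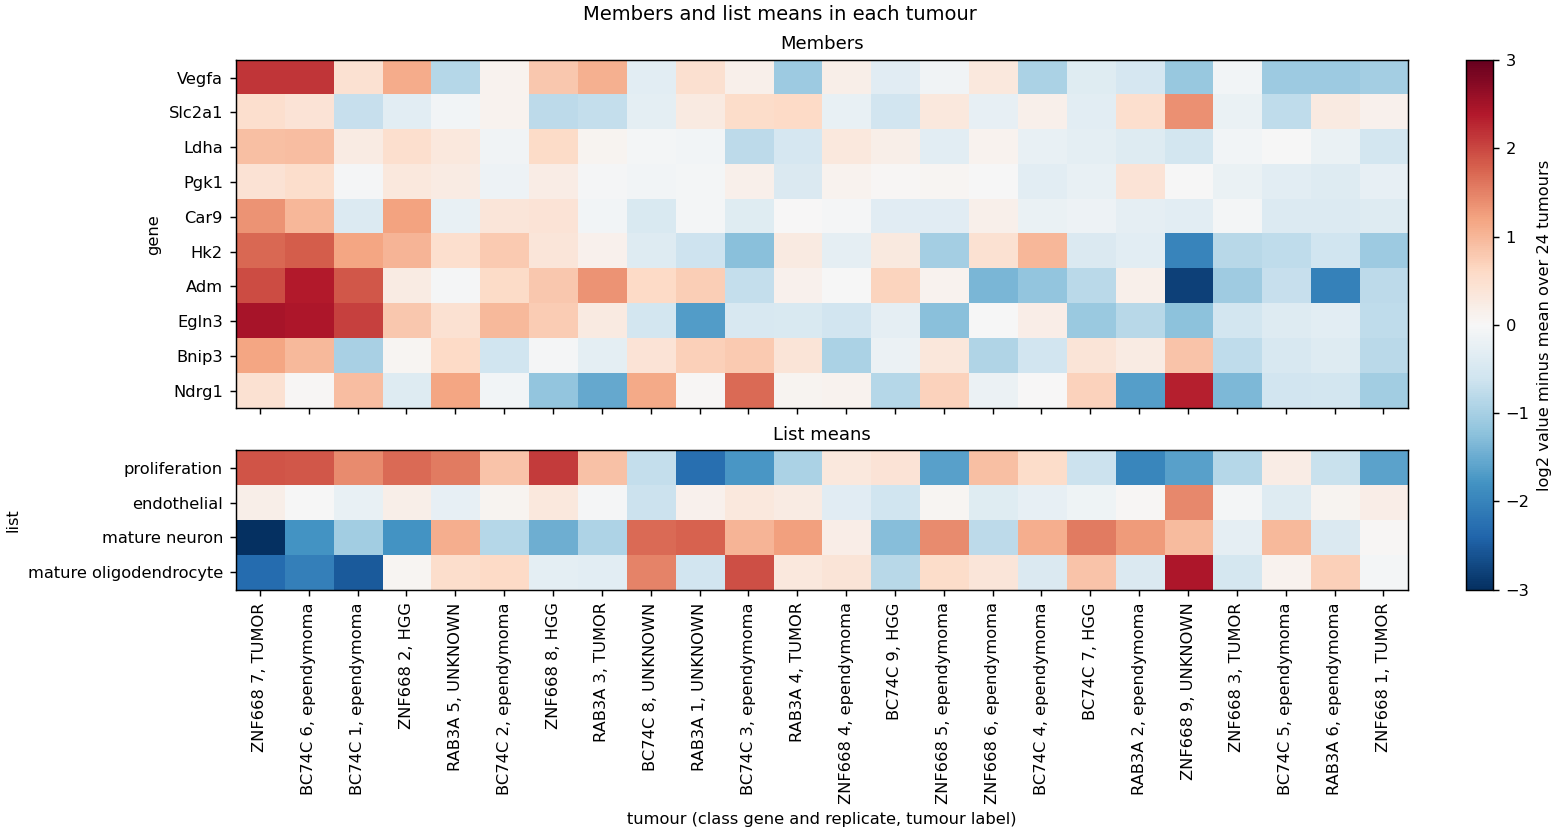
Each column is a tumour, ordered by the mean of the 10 genes, and colour gives the log2 value minus the gene's or list's mean over the 24 tumours, with gene rows above and list means below. ZNF668 replicate 7 and BC74C replicate 6 lead for most genes, and ZNF668 replicate 9 is low for Hk2 and Adm and high for Slc2a1 and Ndrg1.

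Whether the class genes gave tumours with different hypoxia and glycolysis transcripts was asked first. None of the 10 genes passed the test in any of the 3 comparisons, and the groups overlapped for every member. In RAB3A minus ZNF668, 0 of 10 members were called at an adjusted p under 0.05, beside 0.0757% of all 13218 genes. In BC74C minus ZNF668 it was 0 of 10, beside 0.303%. In RAB3A minus BC74C it was 0 of 10, beside 0%, where no gene at all was called although 1085 had an unadjusted p under 0.05. At that unadjusted level too, 0 members stood out in each of the 3, beside 9.21%, 6.88% and 8.21% of all genes in turn. All tests were limma's moderated test, two-sided, on log2 values, adjusted by Benjamini-Hochberg over the 13218 genes.

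Vegfa was lowest in the RAB3A group on average. Its lowest, median and highest values were 7.20, 7.62 and 9.36 in the RAB3A tumours, 7.21, 7.98 and 10.44 in the BC74C tumours and 7.17, 8.48 and 10.44 in the ZNF668 tumours. The groups overlapped, and the highest RAB3A tumour lay below the highest BC74C and ZNF668 tumours. RAB3A minus ZNF668 was -0.58 (SE 0.49; adjusted p by limma 0.643) and BC74C minus ZNF668 -0.27 (SE 0.43; adjusted p 0.978).
Adm went the other way, with lowest, median and highest values of 5.43, 7.60 and 8.80 in RAB3A, 6.27, 8.04 and 9.83 in BC74C and 4.67, 7.45 and 9.42 in ZNF668 tumours. BC74C minus ZNF668 was 0.62 (SE 0.57; 95% interval -0.55 to 1.80), the largest difference of any member in that comparison.
For Egln3, RAB3A tumours ran 5.35, 6.63 and 7.46, and BC74C tumours 5.91, 6.74 and 9.45. RAB3A minus BC74C was -0.74 (SE 0.57, 95% interval -1.91 to 0.43), and its dimmer probe set gave -0.79 (SE 0.36, unadjusted p by limma 0.0384).
Ndrg1 gave the same difference, -0.74 (SE 0.51), with 6.65, 8.03 and 9.47 in RAB3A and 7.45, 8.33 and 9.99 in BC74C tumours. For these genes the intervals span more than a log2 unit on at least 1 side, so differences of that size were not detectable with 6 to 9 tumours a group.

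The glycolysis enzymes were more tightly bounded. Pgk1 averaged 11.61 ± 0.34 (SD, n = 6) in RAB3A, 11.61 ± 0.27 (n = 9) in BC74C and 11.73 ± 0.23 (n = 9) in ZNF668 tumours. Its 95% interval for RAB3A minus ZNF668 was -0.41 to 0.17, and for BC74C minus ZNF668 -0.37 to 0.15. Ldha averaged 11.39 ± 0.30 (n = 6), 11.50 ± 0.46 (n = 9) and 11.62 ± 0.52 (n = 9) in RAB3A, BC74C and ZNF668 tumours, with intervals of -0.70 to 0.24 and -0.54 to 0.31 for the same differences. Hk2 was less certain, at 7.91 ± 0.47 (n = 6), 8.26 ± 1.02 (n = 9) and 7.83 ± 1.17 (n = 9). Slc2a1 averaged 10.38 ± 0.48 in RAB3A, 10.09 ± 0.48 in BC74C and 10.30 ± 0.62 in ZNF668 tumours, and Bnip3 10.35 ± 0.45, 10.11 ± 0.68 and 10.03 ± 0.80. Car9 averaged 4.04 ± 0.16 in RAB3A, 4.11 ± 0.48 in BC74C and 4.43 ± 0.66 in ZNF668 tumours.

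**Figure D2:**
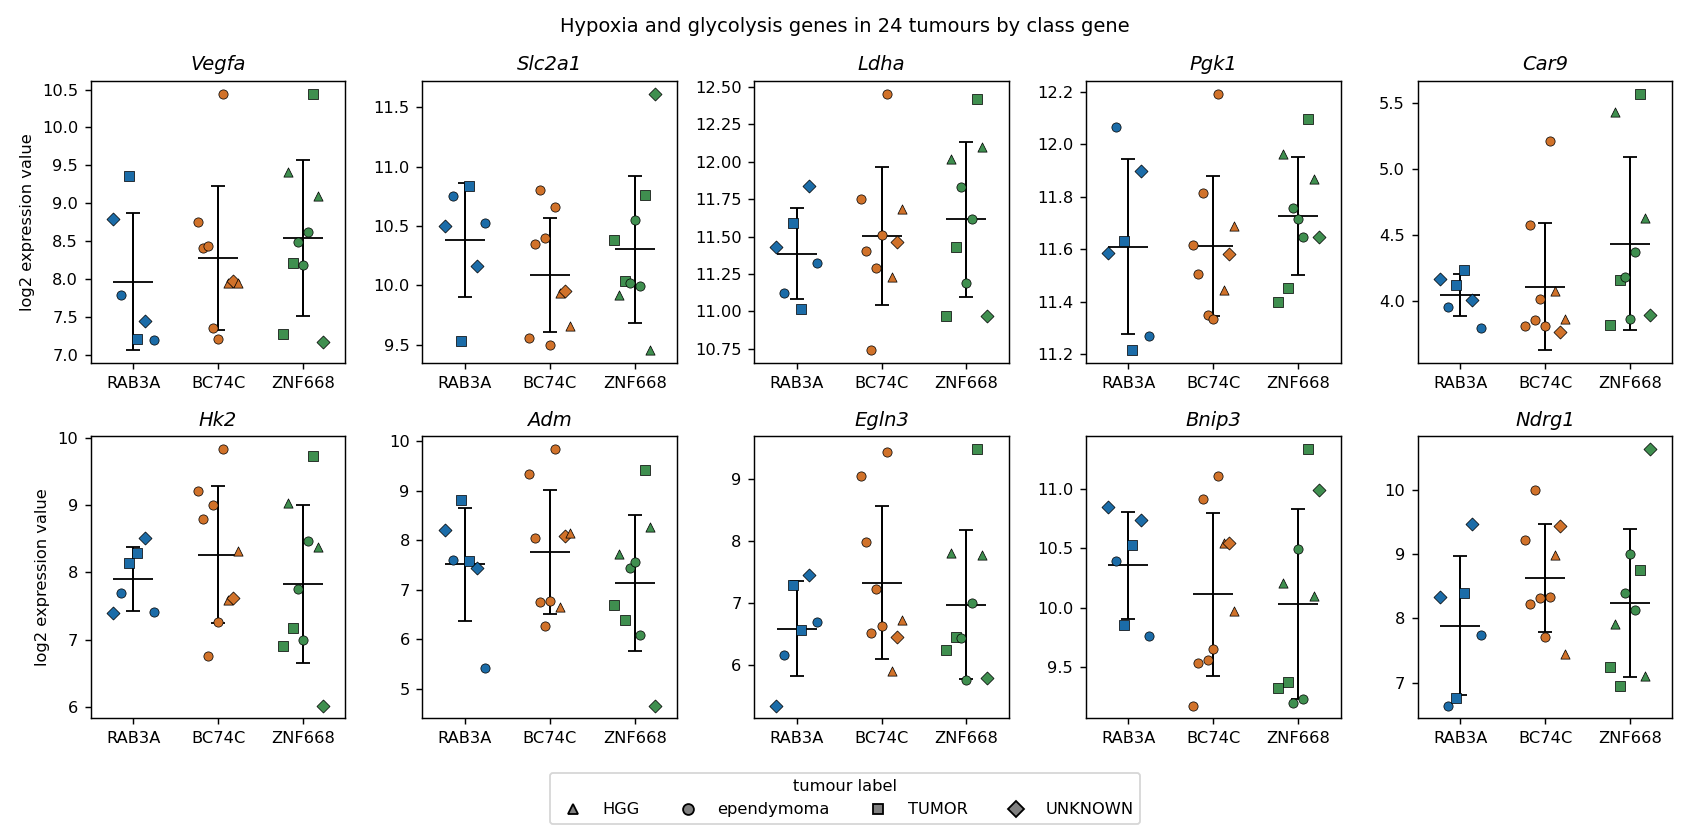
Each point is a tumour, at its log2 value (y axis) for a gene, by class gene (x axis), with the shape giving the tumour label; lines give the mean and bars 1 SD on each side (n = 6, 9 and 9). The class gene groups overlap in every panel, and for Vegfa, Ldha and Egln3 the highest BC74C and ZNF668 tumours stand at nearly the same level.

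No gene of the rest of the pathway passed the test by class gene either. Of 15 tested genes of the HIF machinery, 16 other glycolysis and lactate genes, 21 other HIF targets and 19 endothelial genes, 0 passed the test in any of the 3 comparisons. Hif1a, the best known alpha subunit, averaged 10.83 ± 0.34 (n = 6) in RAB3A, 10.51 ± 0.28 (n = 9) in BC74C and 10.92 ± 0.33 (n = 9) in ZNF668 tumours (BC74C minus ZNF668 -0.41, SE 0.15; adjusted p by limma 0.413). The 13 genes of the VEGF and angiopoietin pathway were all lower in RAB3A than in ZNF668 tumours, with a median difference of -0.44 against -0.04 over all genes, and 0 of them passed. The lowest t in it belonged to Vegfc, the growth factor best known from lymphatic vessels, at -1.83 (SE 0.46; adjusted p 0.221), and to Angpt2, the destabilising angiopoietin, at -1.08 (SE 0.53; adjusted p 0.541). The highest belonged to Nrp1 (-0.09) and Esm1 (-0.56). Vegfc averaged 5.13 ± 1.21 in RAB3A, 5.73 ± 0.82 in BC74C and 6.96 ± 0.77 in ZNF668 tumours. In the same comparison 22 of 22 proliferation genes were lower in RAB3A tumours (median -0.65) and 18 of 18 mature neuron genes higher (median 1.17), with 0 called in either list, and their part in the VEGF genes' difference was not tested. In BC74C minus ZNF668, 11 of 13 VEGF and angiopoietin genes (median -0.47) and 17 of 19 endothelial genes (median -0.41) were lower, against a median of 0.005 over all genes. There 3 and 4 of them had an unadjusted p under 0.05, on lists that share Kdr, Flt1 and Tek. Beside this stood 6.88% of all genes and 0 members. Of 18 mature neuron genes 17 were higher in it (median 0.74), with 1 called, the glutamate receptor gene Gria1 (1.95, adjusted p by limma 0.0390), and the part of these lists in the differences was not tested. RAB3A minus ZNF668 and BC74C minus ZNF668 share the ZNF668 tumours.

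The tumour labels were compared next, with the class gene as a covariate. In HGG minus ependymoma, over 15 tumours, 0 of 10 members were called by limma, beside 0% of all genes, with 0 members and 229 genes at an unadjusted p under 0.05. Slc2a1 came nearest. It stood at 9.45, 9.66, 9.92 and 9.93 in the 4 HGG tumours, and at 9.49 to 10.80 with a median of 10.40 in the 11 ependymomas. All 4 HGG tumours lay below the ependymoma median, and the groups overlapped. The difference was -0.45 (SE 0.24, unadjusted p by limma 0.0804, adjusted 0.9998), and the second Slc2a1 probe set gave -0.58 (SE 0.26, unadjusted p 0.0414). Ndrg1 had the largest difference, -0.67 (SE 0.42; 95% interval -1.57 to 0.23), with 7.11, 7.45, 7.92 and 8.99 in HGG against 6.65 to 9.99, with a median of 8.32, in ependymoma. Vegfa differed by 0.10 (SE 0.48), and its dimmer probe set had the opposite sign, -0.23 (SE 0.48).

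The difference of the label effect between class genes could be fitted over 13 tumours. Again 0 of 10 members passed, beside 0% of all genes, with 1079 genes and 1 member at an unadjusted p under 0.05. That member was Egln3, named after its value was seen. Egln3 stood at 5.91 and 6.74 in the BC74C tumours labelled HGG, against 6.52 to 9.45 with a median of 7.61 in the 6 BC74C ependymomas. In ZNF668 tumours it stood at 7.77 and 7.82 with the HGG label, against 5.76, 6.45 and 6.996 in the 3 ependymomas. HGG was thus the lower label in BC74C and the higher in ZNF668 tumours. The difference of the differences was -2.89 (SE 1.09; unadjusted p by limma 0.0218, adjusted 0.591), and the dimmer probe set gave -2.01 (SE 0.77). Car9 gave -1.13 (SE 0.55) and Hk2 -1.49 (SE 1.08). The proliferation mean moved in the same way, at 6.55 and 7.61 in the BC74C tumours labelled HGG and 8.90 and 9.30 in the ZNF668 tumours labelled HGG. Its part in the difference was not tested.

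Most members moved with the proliferation mean, and 6 of 10 also moved with the mature neuron mean, as given below. Each gene was fitted on the mean of the 22 measured proliferation genes, with the class gene as a covariate, so a slope is in log2 units per log2 unit of the list mean. Of the 10 members 6 were called with a positive slope and 1 with a negative slope, beside 36.5% of 13196 genes called, 18.2% with a positive and 18.3% with a negative slope. The median slope was 0.25 over the members and 0.01 over all genes.

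Hk2 had a slope of 0.59 (SE 0.08; adjusted p by limma 9.19e-06). It stood at 7.40 and 7.70 in RAB3A replicates 1 and 2, the tumours with the lowest proliferation means of 4.93 and 5.23. It stood at 9.83, 9.72 and 8.38 in BC74C replicate 6 and ZNF668 replicates 7 and 8, the tumours with the highest means of 9.06, 9.08 and 9.30. The tumour with the least Hk2, ZNF668 replicate 9 at 6.03, had a proliferation mean of 5.58.
Ldha rose over a narrower range, with a slope of 0.27 (SE 0.04; adjusted p 8.72e-06). Its values were 11.43 and 11.12 in RAB3A replicates 1 and 2, and 12.45, 12.42 and 12.10 in BC74C replicate 6 and ZNF668 replicates 7 and 8. By main probe sets Egln3 had the steepest slope of the members, 0.67 (SE 0.09, adjusted p 1.22e-05). It had values of 5.35 and 6.17 at the low end and 9.45, 9.49 and 7.77 at the high end in the same tumours. Its dimmer probe set had a smaller slope of the same sign, 0.32 (SE 0.08).
Hk2 and Ldha act at the entry to glycolysis and at its exit to lactate, and Egln3 is a feedback hydroxylase on HIF itself.

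The secreted factors followed with more scatter. Adm had a slope of 0.47 (SE 0.16; adjusted p 0.0262) and Vegfa one of 0.37 (SE 0.12; adjusted p 0.0201), and Car9 one of 0.23 (SE 0.06; adjusted p 0.00561). The calls of Vegfa and Adm rested on single tumours. Vegfa had an adjusted p of 0.0510 without BC74C replicate 6 and 0.0550 without ZNF668 replicate 7. Adm had an adjusted p of 0.0607 and 0.0671 without these, and 0.0723 without ZNF668 replicate 9. Without both BC74C replicate 6 and ZNF668 replicate 7 the slopes were 0.22 (adjusted p 0.135) for Vegfa and 0.32 (adjusted p 0.147) for Adm. Ldha, Hk2, Egln3 and Car9 stayed called there, at 0.23, 0.51, 0.55 and 0.15, and so did Slc2a1, with a negative slope.

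Slc2a1 was the exception, with a slope of -0.18 (SE 0.07; adjusted p 0.0496). It stood at 10.50 and 10.75 in RAB3A replicates 1 and 2, and at 10.66, 10.76 and 9.45 in BC74C replicate 6 and ZNF668 replicates 7 and 8, so the high end was itself split. The second Slc2a1 probe set gave -0.17 (SE 0.09, unadjusted p by limma 0.0663). The call of the main probe set was at the threshold: it held in 10 of 24 fits that left out a tumour, with adjusted p from 0.0162 to 0.138. It held in 3 of 11 other alternatives, with adjusted p by limma from 0.00458 to 0.470 over the 11. These 3 were title prefix as a block, no class gene covariate, and leaving out both BC74C replicate 6 and ZNF668 replicate 7. Without ZNF668 replicate 9 the slope was -0.13 (adjusted p 0.138), and without BC74C replicate 6 it was -0.22 (adjusted p 0.0162). Pgk1 (0.07, SE 0.04), Bnip3 (-0.05, SE 0.10) and Ndrg1 (-0.14, SE 0.15) did not pass. Pgk1 passed without RAB3A replicate 2 (0.10, adjusted p 0.0317).

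**Figure D3:**
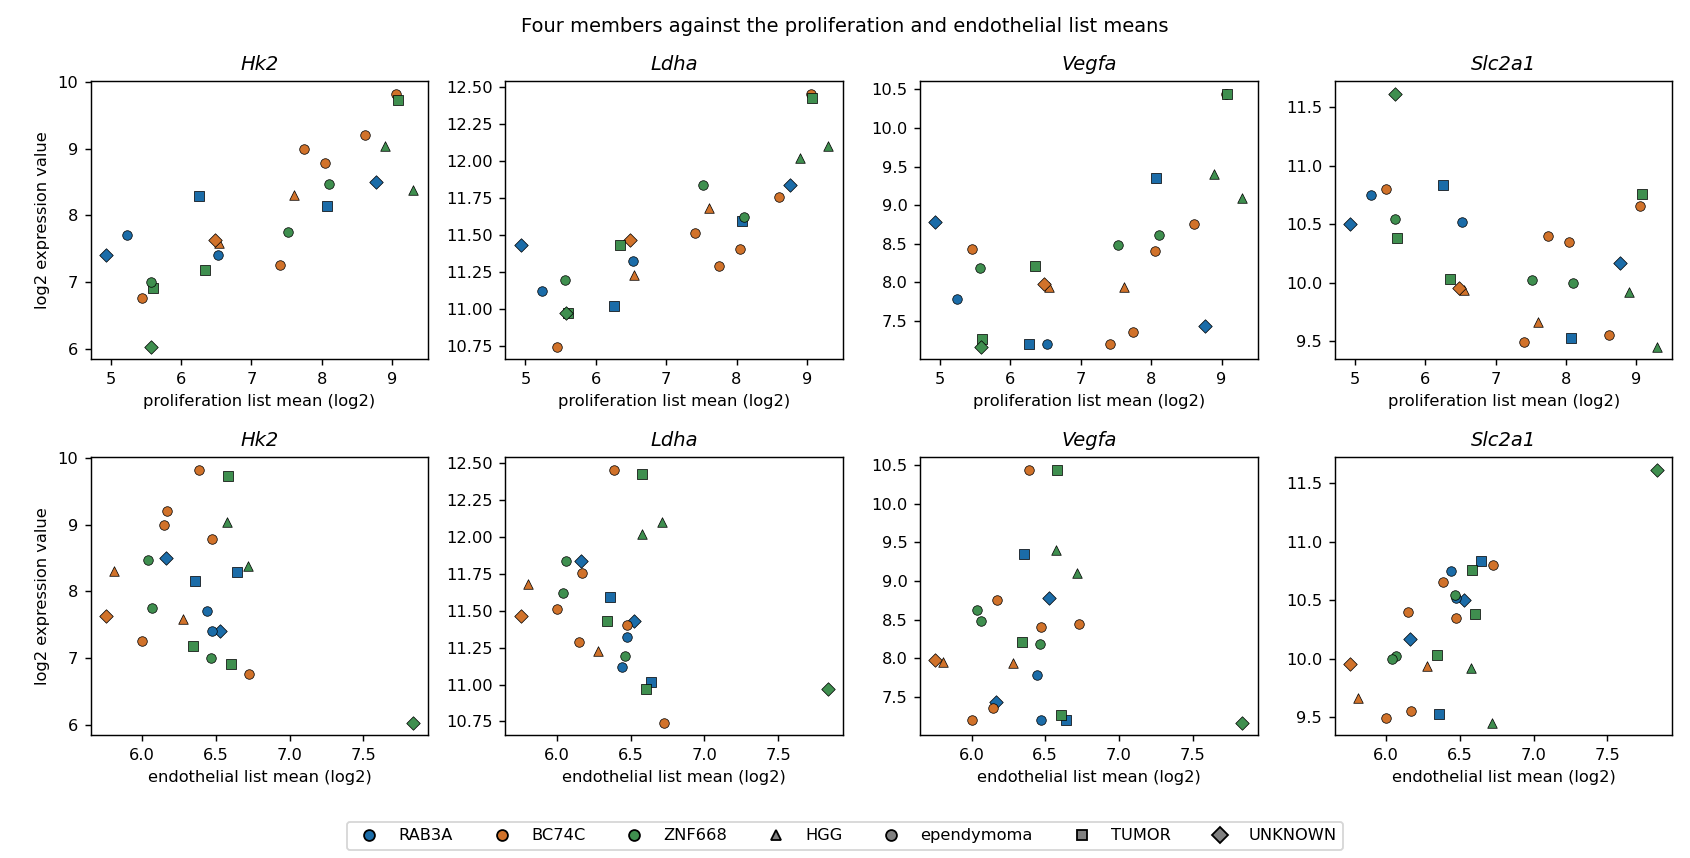
Each point is a tumour; the y axes give the log2 values of Hk2, Ldha, Vegfa and Slc2a1, and the x axes the proliferation list mean (top row) and the endothelial list mean (bottom row), with colour for class gene and shape for tumour label. Hk2 and Ldha climb along the proliferation mean, and in the bottom row ZNF668 replicate 9, at an endothelial mean of 7.84, lies far to the right of all other tumours.

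The titles of 18 tumours begin with elw and those of 6 with mmr, a difference the labels do not explain. Within the 18 elw tumours the proliferation slopes were 0.61 for Hk2, 0.67 for Egln3, 0.25 for Ldha, 0.24 for Car9, 0.39 for Vegfa and 0.38 for Adm, and all but that of Adm (adjusted p by limma 0.0915) were called. Within the 6 mmr tumours they were 0.74, 0.67, 0.32, 0.27, 0.57 and 1.08 in the same order, of the same sign, and 0 members and 0 genes were called with 2 residual degrees of freedom. Slc2a1 had -0.16 (adjusted p 0.117) in the elw and -0.37 (adjusted p 0.470) in the mmr tumours.

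Neuron and oligodendrocyte markers moved with the proliferation mean too, while astrocyte and microglia markers did not. Of 18 mature neuron genes 18 had negative slopes on it, 16 of them called. Of 11 mature oligodendrocyte genes 11 had negative slopes, 5 of them called, beside 18.3% of all genes called with a negative slope. Of 12 astrocyte genes and of 16 microglia and macrophage genes 0 were called. The members were therefore also fitted on the mature neuron and mature oligodendrocyte means, an alternative chosen after seeing the data. On the mature neuron mean 6 of 10 were called, all negative. Over all 13200 genes tested 44.9% were called, 25.2% with a negative and 19.7% with a positive slope. The 6 members were Egln3 at -0.70 (SE 0.09, adjusted p by limma 2.51e-06), Adm at -0.54 (SE 0.16), Hk2 at -0.53 (SE 0.10), Vegfa at -0.48 (SE 0.11), Car9 at -0.25 (SE 0.06) and Ldha at -0.24 (SE 0.05). The dimmer Egln3 probe set gave -0.31 (SE 0.09) on the mature neuron mean. On the mature oligodendrocyte mean 5 of 10 members were called, all negative. Over all 13207 genes tested 29.4% were called, 14.1% with a negative and 15.3% with a positive slope. Adm was the steepest at -0.74 (SE 0.15; adjusted p 0.00176), and Ndrg1 had the opposite sign, 0.36 (SE 0.16; adjusted p 0.0825).

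With the mature neuron mean in the model beside proliferation, 2 members stayed called on the proliferation mean: Hk2 at 0.45 (adjusted p by limma 0.0221) and Ldha at 0.22 (adjusted p 0.0160). Egln3 lost its call, with a slope of 0.37 (adjusted p 0.0587) against 0.67 without the neuron mean. Vegfa had 0.04 (adjusted p 0.924), Adm 0.18 (adjusted p 0.751) and Car9 0.09 (adjusted p 0.614). With both means in the model the neuron slope was called for Egln3 alone, at -0.42 (adjusted p 0.0154), and that of Vegfa was -0.45 (adjusted p 0.0612). For Vegfa, Adm and Car9 more proliferation and less neuronal transcript cannot be told apart in these 24 tumours.

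**Figure D4:**
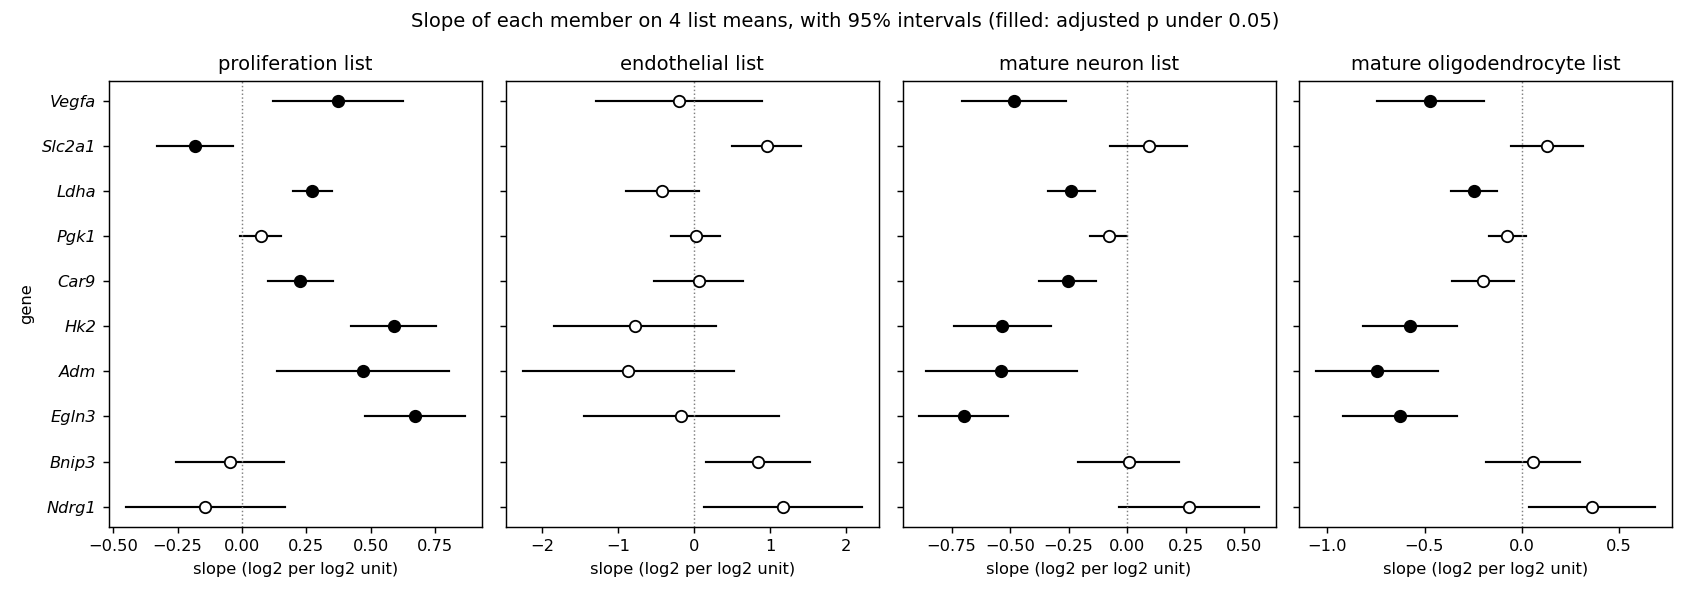
Points give each gene's slope (log2 per log2 unit, x axis) on 4 list means, with 95% intervals from limma and filled points where the adjusted p was under 0.05. Hk2, Egln3, Ldha, Vegfa, Adm and Car9 are positive on the proliferation mean and negative on the mature neuron mean, while Slc2a1, Bnip3 and Ndrg1 lie on the other side or near 0.

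The rest of the HIF system had called slopes of both signs on the proliferation mean. Of 15 machinery genes 3 had called positive and 3 called negative slopes. That is close to the shares over all genes, 18.2% and 18.3%. Hif1a was positive (0.13, SE 0.04; adjusted p by limma 0.0105). Epas1, the alpha subunit known from endothelium and glia, was negative (-0.16, SE 0.04; adjusted p 0.00421), as were Hif3a (-0.40, SE 0.10) and Arnt2, the neuronal partner subunit (-0.23, SE 0.03; adjusted p 2.34e-05). Of 21 other HIF targets 5 had called positive slopes and 1 a called negative slope, beside the same shares over all genes. Those with the smallest p were Fam162a, a mitochondrial protein (0.27, SE 0.05; adjusted p 0.000392), Stc2, a secreted glycoprotein (0.33, SE 0.09), Plod2, a collagen-modifying lysyl hydroxylase (0.32, SE 0.10), and Ak4, a mitochondrial adenylate kinase (0.23, SE 0.08). The 1 with a negative slope was Mxi1 (-0.09, SE 0.03), named after its value was seen.

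Other glycolysis genes did not follow Hk2 and Ldha. Of 16 tested, 8 had called negative slopes and 1 a positive one, beside 18.3% and 18.2% of all genes. Ldhb, the lactate dehydrogenase subunit of oxidative tissue, fell with the proliferation mean at -0.25 (SE 0.04; adjusted p by limma 5.55e-05). Eno2, the neuronal enolase, fell at -0.66 (SE 0.13; adjusted p 0.000415), Hk1, the hexokinase of normal brain, at -0.22 (SE 0.05), and Pfkm, a phosphofructokinase, at -0.26 (SE 0.04). On the mature neuron mean the same genes were positive, with 0.85 (SE 0.07) for Eno2, 0.26 (SE 0.05) for Hk1, 0.24 (SE 0.05) for Pfkm and 0.16 (SE 0.06) for Ldhb, all called. The 1 gene with a positive proliferation slope was Pfkfb3, a regulator of phosphofructokinase, at 0.27 (SE 0.07; adjusted p 0.00394), named after its value was seen.

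Vessels were examined through the factors that act on them and through endothelial markers. Of the 13 VEGF and angiopoietin genes 5 had called positive slopes on the proliferation mean and 0 negative, beside 18.2% and 18.3% of all genes. Aplnr, the apelin receptor, had 0.76 (SE 0.22; adjusted p by limma 0.00829), Esm1, a product of activated endothelial tip cells, 0.67 (SE 0.22; adjusted p 0.0184), Apln, which encodes apelin, the ligand of Aplnr, 0.28 (SE 0.10) and Dll4, the Notch ligand of tip cells, 0.16 (SE 0.05). Esm1 ranged from 2.70 to 8.74, and its 2 highest values, 8.74 and 8.54, were in BC74C replicate 6 and ZNF668 replicate 7. Its mean of 4.12 passed the filter at 3.76 while its median of 3.38 lay under it, so its high values carried it past the filter. General endothelial markers did not follow. Of 19 tested 8 had positive and 11 negative slopes, and 0 positive and 4 negative slopes were called. Over all genes 18.2% and 18.3% were called, so the count of negative calls is close to the share over all genes. Those 4 were Slco1a4 (-0.55, SE 0.12; adjusted p 0.00111), Mfsd2a (-0.45, SE 0.13), Abcb1a (-0.43, SE 0.10) and Sox17 (-0.25, SE 0.07). Slco1a4, Mfsd2a and Abcb1a encode transporters of the blood-brain barrier. Pecam1 and Cdh5, junction proteins of all endothelium named after their values were seen, had 0.16 (SE 0.12) and 0.02 (SE 0.08).

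On the endothelial mean itself 0 of 10 members were called by limma, beside 0.371% of 13199 genes. An unadjusted p under 0.05 was reached by 3 of 10 members, beside 19.2% of all genes. Vegfa, although the main endothelial growth factor, had -0.20 (SE 0.53; 95% interval -1.30 to 0.89), and its dimmer probe set 0.17 (SE 0.46). Slc2a1 came nearest, at 0.96 (SE 0.22; adjusted p 0.0520), with its second probe set at 0.90 (SE 0.28). It stood at 9.95, 9.66 and 9.49 in BC74C replicates 8, 9 and 5, with the lowest endothelial means of 5.76, 5.81 and 6.001, and at 10.80 and 11.62 in BC74C replicate 3 and ZNF668 replicate 9, with means of 6.73 and 7.84. ZNF668 replicate 8 was against the trend, with a mean of 6.71 and the lowest Slc2a1 of all, 9.45. Bnip3 had 0.84 (SE 0.33; adjusted p 0.179) and Ndrg1 1.17 (SE 0.50; adjusted p 0.212).

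The Slc2a1 relation kept its size and not its precision. It was called in 9 of 24 fits that left out a tumour: without BC74C replicates 1, 2, 4, 6 or 8, RAB3A replicates 3 or 5, or ZNF668 replicates 5 or 8, with adjusted p from 0.0154 to 0.0499. Without ZNF668 replicate 9 the slope was 0.84 (SE 0.34; unadjusted p by limma 0.0208, adjusted 0.9996). Within the elw tumours it was 1.04 (SE 0.37) and within the mmr tumours 1.16 (SE 0.53), neither called. Ndrg1 had 0.22 (SE 0.73) without ZNF668 replicate 9, and Vegfa turned to 0.95 (SE 0.75), as did Adm, which had -0.87 (SE 0.67) with that tumour and 0.56 (SE 0.96) without it. The sign of the Vegfa and Adm slopes thus hung on that tumour, while that of Ndrg1 did not change. Over all fits that left out a tumour, the slopes of Egln3, Hk2, Car9 and Pgk1 also took the other sign at least once. Egln3 reached 0.84, from -0.17 with all tumours. Those of Slc2a1, Ldha and Bnip3 kept their sign in these fits. Of the other lists, 0 of 15 machinery genes, 0 of 16 glycolysis genes, 0 of 21 HIF targets and 0 of 10 VEGF and angiopoietin genes outside the endothelial list were called. Among 7 pericyte genes 1 was, Rgs5 at 1.14 (SE 0.18; adjusted p 0.00523).

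Gene by gene across the 24 tumours, the members did not form 1 block. Hk2 and Egln3 were the closest pair (Pearson's r 0.86, Spearman's rho 0.85), followed by Vegfa and Car9 (r 0.79, rho 0.61). Bnip3 went with Slc2a1 (r 0.56, rho 0.52) and with Ndrg1 (r 0.47, rho 0.47), and Slc2a1 with Ndrg1 (r 0.45, rho 0.37). Slc2a1 and Ldha, the uptake of glucose and its turnover to lactate, ran opposite (r -0.38, rho -0.50). These correlations describe tumours that share the proliferation and neuron gradients, and they carry no test. Without BC74C replicate 6 and ZNF668 replicate 7, over 22 tumours, Hk2 and Egln3 had r 0.79 and Vegfa and Car9 0.59, while Slc2a1 and Ldha had -0.75 and Bnip3 and Ndrg1 0.50.

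Against the mean of the other 9 members, r over 24 tumours was 0.77 for Vegfa, 0.74 for Car9, 0.74 for Egln3, 0.73 for Ldha, 0.69 for Hk2, 0.68 for Pgk1 and 0.63 for Adm. It was 0.36 for Bnip3, -0.01 for Ndrg1 and -0.06 for Slc2a1. Without the 2 leading tumours the highest was 0.49 for Vegfa, Bnip3 had -0.05, and Slc2a1 had -0.44. A single hypoxia score over the 10 genes would thus average genes that ran in different directions among the other 22 tumours.

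**Figure D5:**
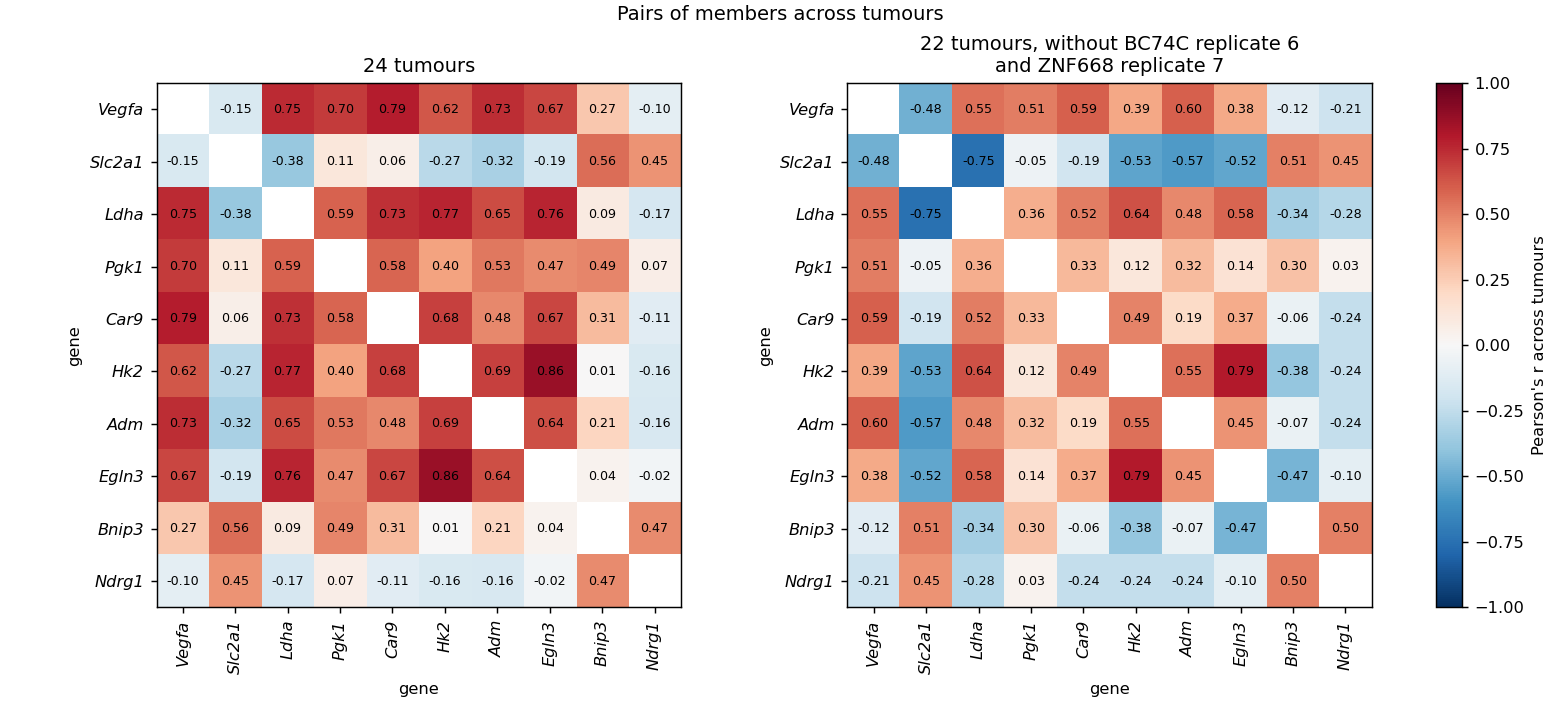
Cells give Pearson's r between the log2 values of each pair of genes, over 24 tumours (left) and over the 22 without BC74C replicate 6 and ZNF668 replicate 7 (right). Vegfa, Ldha, Car9, Hk2, Adm and Egln3 are positively correlated with each other in both panels, and Slc2a1 turns more negative against most of them in the right one, to -0.75 against Ldha.

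Outside the members, the genes whose pattern was most like the members' mean, by Pearson's r over 24 tumours, were Mgarp (0.87), Myct1 (0.84), Ero1a (0.83), Prelid1 (0.83), Kcnq1 (0.82), Higd1a (0.79), Cxcl1 (0.79), Cdc25c (0.78), Esm1 (0.78) and Parpbp (0.78). Ero1a, an oxidase of protein folding, and Higd1a, a mitochondrial protein, were on the list of other HIF targets. Esm1 was on the vessel list. Kcnq1, with a mean of 3.87, lay closest above the filter at 3.76. Myct1 (mean 4.08), Esm1 (4.12), Mgarp (4.15) and Parpbp (4.16) were dim too. In 6 of the 10 the highest value was in ZNF668 replicate 7 and the next highest in BC74C replicate 6. Mgarp stood at 6.36 and 5.93 in ZNF668 replicate 7 and BC74C replicate 6, against a mean of 4.15 over all tumours. Without these tumours r fell to 0.60 for Mgarp and 0.34 for Esm1, and Prelid1 kept the highest of the 10, 0.71.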

How the data were processed

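Total RNA was extracted from each tumour with Trizol and turned into biotinylated cRNA by the Affymetrix protocol, per the labels' protocols. The authors deposited 1 log2 expression value per probe set and array, and the submitters' processing notes name Partek 6.6. Background correction, normalization and summarisation are not given in the sources used here. If arrays were equalised, a change shared by most genes would be hidden. That the values are log2 was read from their range.

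The deposited values were used as they are. Of 45037 probe sets (104 control probe sets left out), 28898 had 1 gene symbol in the platform annotation, 551 several and 15588 none. For 17097 genes with a single-symbol probe set, the one with the highest mean stood for the gene, and a gene was left out where that mean fell under the 30th percentile of probe sets (log2 3.76). No column of another sample was used, as there were 0. Class genes were compared in 1 model of 24 tumours, labels with the class gene as covariate, and slopes on a list mean with the class gene as covariate and the list's own genes left out. Tests used limma 3.58.1 in R 4.3.3 (eBayes with trend) and were two-sided, and p-values were adjusted by Benjamini-Hochberg over all genes tested, with a threshold of 0.05. Figures used Python 3.11.15, pandas 2.3.3 and matplotlib 3.10.9. The fits were tested on simulated data. Groups came from the class gene and source labels, replicate numbers follow the order of deposit, and precision is limited by how many arrays there are.

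The members and the gene lists were chosen with earlier results of these data known. Named genes are the members, of each other list at most 4 called genes with the smallest p, or the 2 highest and 2 lowest moderated t where the text describes a list with none, and the 10 genes most like the members' mean. Alternatives were no filter, the mean of all probe sets, quantile normalization, title prefix as a block or taken singly, mature neuron mean as covariate and leaving out tumours.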

Additional observations from a re-analysis of the deposited data

Results flagged for a closer look

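Among 60 groups of 4 to 9 tumours examined gene by gene, 2 held a value far from the others of the group. Chance gives about 5% of groups, which 2 of 60 does not exceed. The 11 tumours labelled ependymoma were not examined as a group. Vegfa in BC74C replicate 6 was 10.44, the next BC74C tumour stood at 8.75, and the gap was 0.523 of the range of the 9 tumours. Car9 in ZNF668 replicate 7 was 5.57, the next tumour labelled TUMOR stood at 4.23, and the gap was 0.765 of the range of the 5 tumours. These are the same 2 tumours that lead most of the other members. Both flags lie on tumours whose values were also left out as an alternative, added after seeing the data.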

How the results depend on the processing

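In the class gene and label comparisons, and in the difference between class genes, 0 members were called under every alternative run and with any tumour left out. Over all genes the count in RAB3A minus ZNF668 was 10 and ran from 0 to 40 with a tumour left out, and in BC74C minus ZNF668 it was 40 and ran from 25 to 63. The label comparisons could not be fitted within mmr, for too few tumours. For the proliferation slope 7 members were called, 2 with the mature neuron mean as covariate (675 genes in place of 4815), 0 in the 6 mmr tumours and 5 to 7 with a tumour left out. For the endothelial slope 0 were called, and 1, Slc2a1, with quantile normalization, with the mature neuron mean and without the class gene as covariate. With a tumour left out it was 0 to 1, and over all genes 0 to 235 in place of 49. For the mature neuron slope 6 were called, 0 in the mmr tumours, 1 with the proliferation mean too and 6 to 7 with a tumour left out. Over all genes these counts were 5928, 0, 2217 and 5323 to 6117. For the mature oligodendrocyte slope 5 were called, 1 in the elw tumours, 0 in the mmr tumours, 0 with the mature neuron mean, 2 with the proliferation mean too and 4 to 7 with a tumour left out. In the same order the counts over all genes were 3881, 875, 0, 90, 470 and 1541 to 4442. The mmr fits had 2 residual degrees of freedom; for the other changes the cause was not tested. No called value changed sign. No paired analysis was possible because the replicate numbers only follow the order of deposit and pair no tumours.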
